A study of Mus musculus with 6 samples.

Results

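The renin-angiotensin system genes followed here were 9 genes chosen by name, Ren1, Agt, Ace, Agtr1a, Agtr1b, Agtr2, Enpep, Mme and Atp6ap2, and all array probe sets annotated with 1 of these symbols were taken as members. That gave 12 probe sets for 8 of the 9 genes, out of 45037 that are not controls. No probe set carried the symbol Ren1 in the annotation used here, so renin itself, the enzyme that opens the pathway, was not analysed here.

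RNA of glomeruli, the tufts of capillaries through which the kidney filters blood, was isolated with magnetic beads and measured on Affymetrix expression arrays, 1 per mouse. The wild-type group held 3 littermate controls. The Vhl-deleted group held 3 mice in which a single-copy podocin promoter Cre transgene (Pod-Cre), active in podocytes, had excised a floxed von Hippel-Lindau gene. All 6 mice were female and 6 weeks old, and the Vhl-deleted mice had been chosen for urinary albumin no higher than the mean of wild-type littermates at 4 weeks. The breeding animals were homozygous for the floxed locus; the alleles carried by each control and the strain are not given in the sources used here. The deletion is directed to podocytes in this model. The endothelial, mesangial, parietal and any tubular cells of the isolate are meant to keep the gene. Excision by cell type was not measured here.

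As background, angiotensinogen (Agt) is cleaved by renin to angiotensin I, which angiotensin-converting enzyme (Ace) trims to angiotensin II, the main effector. Angiotensin II acts on the type 1 receptor, which mice encode in the gene pair Agtr1a and Agtr1b, and on the type 2 receptor (Agtr2), and it is broken down by surface peptidases such as aminopeptidase A (Enpep), while neprilysin (Mme) cuts angiotensin I to other products. Podocytes carry both of these peptidases on their surface, as do proximal tubule cells, and the type 1 receptor is found on mesangial cells, where it drives contraction.

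Array facts and checks of the labels bear on all values below. The median signal lay between 94.6 and 107.5 on the 6 arrays, and precision is limited by their number. Egln3, a target of the hypoxia-inducible factors (HIF) that VHL protein marks for degradation, was at 154 ± 14.6 (SD, n = 3) without and 4523 ± 747 (SD, n = 3) with the deletion. Vhl itself was at 727 ± 74.1 (SD, n = 3) and 612 ± 6.46 (SD, n = 3), and it was not called (log2 change -0.23, limma adjusted p = 0.943). The place of its probes relative to the excised exon was not given in the sources used here. All 10 podocyte markers measured passed the filter on low signals, with none near 0. Of these, 8 had a negative change (median -0.26) and 0 were called in limma, while 50% of all 10232 genes tested had a positive change. A limma unadjusted p under 0.05 with groups that did not overlap was found for 3. Lmx1b and Foxc2 were lower and Cdkn1c higher, at -0.53, -0.58 and 0.48 on the log2 scale. Over all genes, 4.86% had an unadjusted p under 0.05 and the groups did not overlap in 10.6%. For Foxc2 the highest array was wild-type replicate 3, at 5990, against 3468.5 and 3510.2 on wild-type replicates 1 and 2. The same array was the highest for each podocyte marker with a negative change. On wild-type replicates 1, 2 and 3 the mean log2 level of the 10 markers was 12.77, 12.84 and 13.19. On Vhl-deleted replicates 1, 2 and 3 it was 12.82, 12.75 and 12.62. The part of that array in the podocyte marker changes was not tested. Proximal tubule markers set wild-type replicate 3 apart: their summed signal over 14 genes was 28167 on that array, against 98435 and 125438 on the other wild-type arrays and 95164, 91456 and 152054 on Vhl-deleted replicates 1, 2 and 3. Markers of the macula densa and thick ascending limb (4 genes) had the same lowest and highest arrays. Their summed signal was 15063 on wild-type replicate 3, against 39086 and 40178 on the other wild-type arrays. On Vhl-deleted replicates 1, 2 and 3 it was 36424, 32659 and 47634. All 4 of these genes had a positive change (median 0.36, 0 called). The part of tubule content in the results was not tested, and the values without that array stand beside the results described as moving with these markers.

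Because VHL protein marks HIF for degradation, the promoter windows of the members are shown for the core sequence that HIF binds. The windows are RefSeq sequence on GRCm38.p6 (mouse), 250 bases before to 50 bases after a gene's start, and 8 of the 9 genes had 11 windows among them. The search was for ACGTG and GCGTG on both strands, where they read CACGT and CACGC on the opposite strand and could overlap with the forward form as CACGTG. Of all 32851 windows in the table, 43.8% held a match, so a match alone is common, and of the members' 11 windows 2 did, 1 each in Atp6ap2 and Mme. The windows of Ren1, Agt, Ace, Agtr1b, Agtr2 and Enpep held none of these letters, which says nothing about binding elsewhere. The windows below are those of the members with a match, of Enpep as a member without one, and of Egln3 as the responding gene set beside them, in lower case with matches in capitals.
Atp6ap2, chrX:12587509-12587808, + strand: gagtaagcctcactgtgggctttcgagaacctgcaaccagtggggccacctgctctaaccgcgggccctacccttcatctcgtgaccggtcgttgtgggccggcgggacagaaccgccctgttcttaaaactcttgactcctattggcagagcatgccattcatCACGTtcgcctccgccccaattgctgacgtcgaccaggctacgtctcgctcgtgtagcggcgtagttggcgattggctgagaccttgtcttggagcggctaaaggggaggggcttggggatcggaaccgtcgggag
Mme, chr3:63295845-63296144, + strand: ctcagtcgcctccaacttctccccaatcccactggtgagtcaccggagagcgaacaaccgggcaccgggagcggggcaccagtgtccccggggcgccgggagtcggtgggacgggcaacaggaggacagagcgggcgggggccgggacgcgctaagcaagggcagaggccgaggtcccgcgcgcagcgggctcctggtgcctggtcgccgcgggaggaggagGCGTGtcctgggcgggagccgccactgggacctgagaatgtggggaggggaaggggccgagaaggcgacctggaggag
Enpep, chr3:129332700-129332999, - strand: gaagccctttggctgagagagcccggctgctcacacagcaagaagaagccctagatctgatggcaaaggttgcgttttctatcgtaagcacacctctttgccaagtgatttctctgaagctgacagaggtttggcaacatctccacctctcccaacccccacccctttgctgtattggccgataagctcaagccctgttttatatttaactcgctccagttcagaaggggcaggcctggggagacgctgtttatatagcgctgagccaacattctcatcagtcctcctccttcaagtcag
Egln3, chr12:54203825-54204124, - strand: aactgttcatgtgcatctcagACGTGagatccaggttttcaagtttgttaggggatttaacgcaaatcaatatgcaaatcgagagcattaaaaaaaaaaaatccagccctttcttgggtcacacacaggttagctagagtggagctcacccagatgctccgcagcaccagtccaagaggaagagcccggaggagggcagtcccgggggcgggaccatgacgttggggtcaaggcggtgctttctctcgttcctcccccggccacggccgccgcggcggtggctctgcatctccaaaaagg
The Atp6ap2 match began 86 bases before the gene's start and read on the opposite strand. The Mme match began 28 bases before the last of the 3 starts listed for that gene. The Egln3 match began 229 bases before its start. No change in signal was detected in either member with a match, as described next.

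Podocyte deletion of Vhl was not accompanied by a detected change in any renin-angiotensin gene measured. Of the 12 probe sets, 0 passed the threshold of 0.05 after Benjamini-Hochberg adjustment in limma over all 45037 probe sets, where 0.0355% passed, and 0 had an unadjusted p under 0.05, where 4.53% of all probe sets did. The smallest unadjusted p among them was 0.083, and the adjusted p ranged from 0.984 to 0.997. In all 12 the range of the Vhl-deleted arrays overlapped that of the wild-type arrays, and over all probe sets the groups did not overlap in 9.78%. The log2 change (Vhl-deleted minus wild-type, of signal + 28) was positive in 10 of the 12 and in 50.9% of all probe sets, with a median of 0.10 in the members and 0.0059 in all. In a glomerular isolate, fewer cells of a type and less RNA per cell cannot be told apart.

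**Figure D1:**
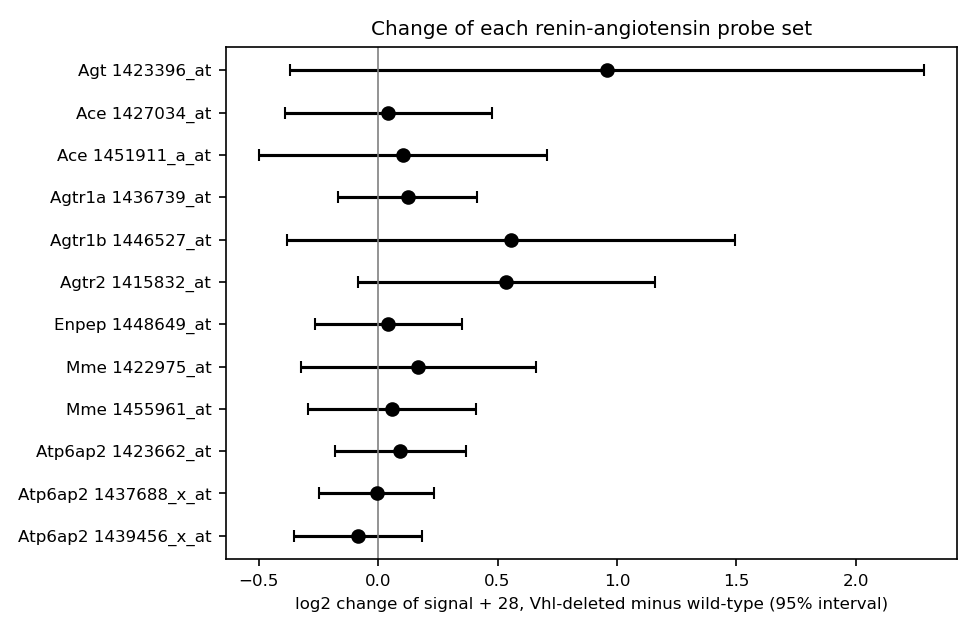
Log2 change of signal + 28 (Vhl-deleted minus wild-type, n = 3 arrays per group) for each of the 12 probe sets, with points as estimates and bars as 95% intervals from limma. Every interval includes 0; the narrowest belong to Atp6ap2, Agtr1a and Enpep, and the widest to Agt.

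The intervals differ widely in what they leave room for. Expressed as a fold of Vhl-deleted over wild-type on the scale of signal + 28, the 95% interval ran from 0.833 to 1.27 for Enpep, from 0.891 to 1.33 for Agtr1a and from 0.815 to 1.33 for the brighter Mme probe set. For Ace it ran from 0.707 to 1.63, and for Agt from 0.774 to 4.88, which leaves room for a several-fold difference in Agt. In a separate fit of 10232 genes, each represented by its brightest probe set above a mean signal of 156, 5 members were tested and 0 were called, against 0.0977% of all genes. The probe sets of Agt, Agtr1b and Agtr2 lay below that filter, and the other 9 member probe sets passed it.

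Agt encodes the only known precursor of the angiotensin peptides, and in the kidney it is made mainly by proximal tubule cells. Its signal (probe set 1423396_at) was 147, 70.9 and 12.9 on wild-type and 132, 76.2 and 284 on Vhl-deleted arrays (replicates 1, 2 and 3 in this order, here and below). Wild-type replicate 3 was the lowest and Vhl-deleted replicate 3 the highest, and the other 4 arrays were interleaved. The group means were 77.0 ± 67.4 (SD, n = 3) and 164 ± 108 (SD, n = 3), a log2 change of 0.96 (SE 0.58) with a limma adjusted p of 0.984. The same arrays that were lowest and highest for Agt were lowest and highest for the proximal tubule markers, all 14 of which had a positive change (median 0.61, 0 called). Without wild-type replicate 3 the Agt change was 0.40, without Vhl-deleted replicate 3 it was 0.53, and without wild-type replicate 1 it was 1.45. With the mean of the proximal tubule markers as a covariate (the tubule covariate) it was 0.46 (limma adjusted p = 0.970). The order was not the same throughout: wild-type replicate 2 had a higher tubule sum than wild-type replicate 1 and an Agt signal below that of wild-type replicate 1.

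**Figure D2:**
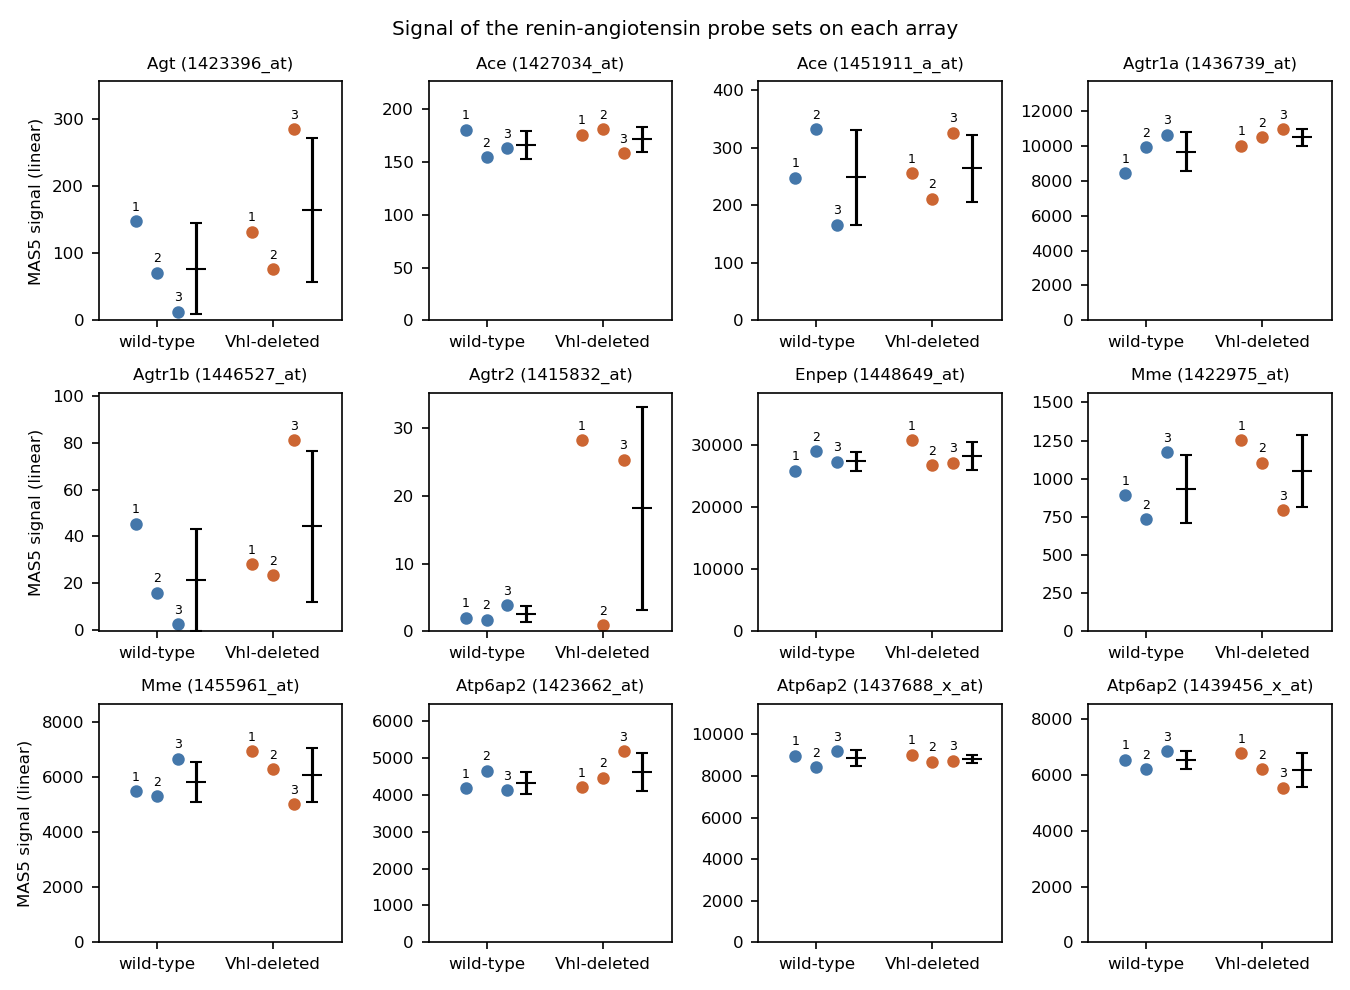
MAS5 signal (linear scale) of each of the 12 probe sets on each array, with points for arrays numbered by replicate and a dash with bars for the group mean ± SD (n = 3). The groups overlap in every panel, and Agt, Agtr1b and Agtr2 show the widest scatter for their level.

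Ace encodes the peptidyl dipeptidase that forms angiotensin II, known on endothelium and on the tubular brush border. Probe set 1451911_a_at, whose suffix marks probes shared by alternative transcripts of a gene, gave 248, 332 and 167 on wild-type and 256, 211 and 326 on Vhl-deleted arrays. The highest array of each group was at nearly the same level, and wild-type replicate 3 was the lowest of all. The log2 change was 0.10 (SE 0.26, limma adjusted p = 0.987). It turned to -0.13 without wild-type replicate 3 and to -0.13 with the tubule covariate, and to -0.04 without Vhl-deleted replicate 3. The other Ace probe set, 1427034_at, was flatter, at 181, 154 and 163 on wild-type and 176, 181 and 158 on Vhl-deleted arrays, with a log2 change of 0.04 (SE 0.19). The ratio of 1451911_a_at to 1427034_at ran from 1.02 on wild-type replicate 3 to 2.15 on wild-type replicate 2, with 2.06 on Vhl-deleted replicate 3, so the probe sets did not follow each other from array to array. Ace has 2 annotated starts among the promoter windows, and which transcripts each probe set reads was not given in the sources used here.

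Enpep encodes aminopeptidase A, which removes the N-terminal aspartate of angiotensin II. Its signal (1448649_at) was 25842, 28975 and 27300 on wild-type and 30760, 26777 and 27130 on Vhl-deleted arrays. Vhl-deleted replicate 1 was the highest and wild-type replicate 1 the lowest, and the highest array was 1.19 times the lowest. The means were 27372 ± 1568 (SD, n = 3) and 28222 ± 2205 (SD, n = 3), a log2 change of 0.04 (SE 0.13, limma adjusted p = 0.988). Enpep is known from the proximal tubule brush border as well as from podocytes. On replicate 3 of the wild-type and of the Vhl-deleted group its signal was 27300 and 27130, and the summed proximal tubule signal was 28167 and 152054. The highest signal of any probe set on an array lay between 38237 and 44281, so Enpep sat near the top of the measured range, where a change may be compressed. This was not tested. With quantile normalization the change was -0.06.

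Mme encodes neprilysin, a zinc metallopeptidase of podocytes and of the proximal tubule that also degrades natriuretic peptides and kinins. Probe set 1455961_at gave 5487, 5310 and 6657 on wild-type and 6934, 6291 and 5024 on Vhl-deleted arrays. Vhl-deleted replicate 1 and wild-type replicate 3 were highest, and Vhl-deleted replicate 3 and wild-type replicate 2 lowest. The log2 change was 0.06 (SE 0.15, limma adjusted p = 0.987). The dimmer probe set, 1422975_at, gave 893, 734 and 1173 on wild-type and 1252, 1104 and 795 on Vhl-deleted arrays (log2 change 0.17, SE 0.21, limma adjusted p = 0.984). It ordered the arrays in the same way down to the lowest pair, which changed places. The ratio of the brighter to the dimmer Mme probe set ran from 5.54 to 7.24, a narrower span than in the Ace pair. The podocyte list mean (10 genes) was highest in wild-type replicate 3, at 13.19, and lowest in Vhl-deleted replicate 3, at 12.62; Mme was high in the former and low in the latter, and its highest array, Vhl-deleted replicate 1, was at 12.82. The parts of podocyte and of tubule content in the Enpep and Mme values were not tested.

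**Figure D3:**
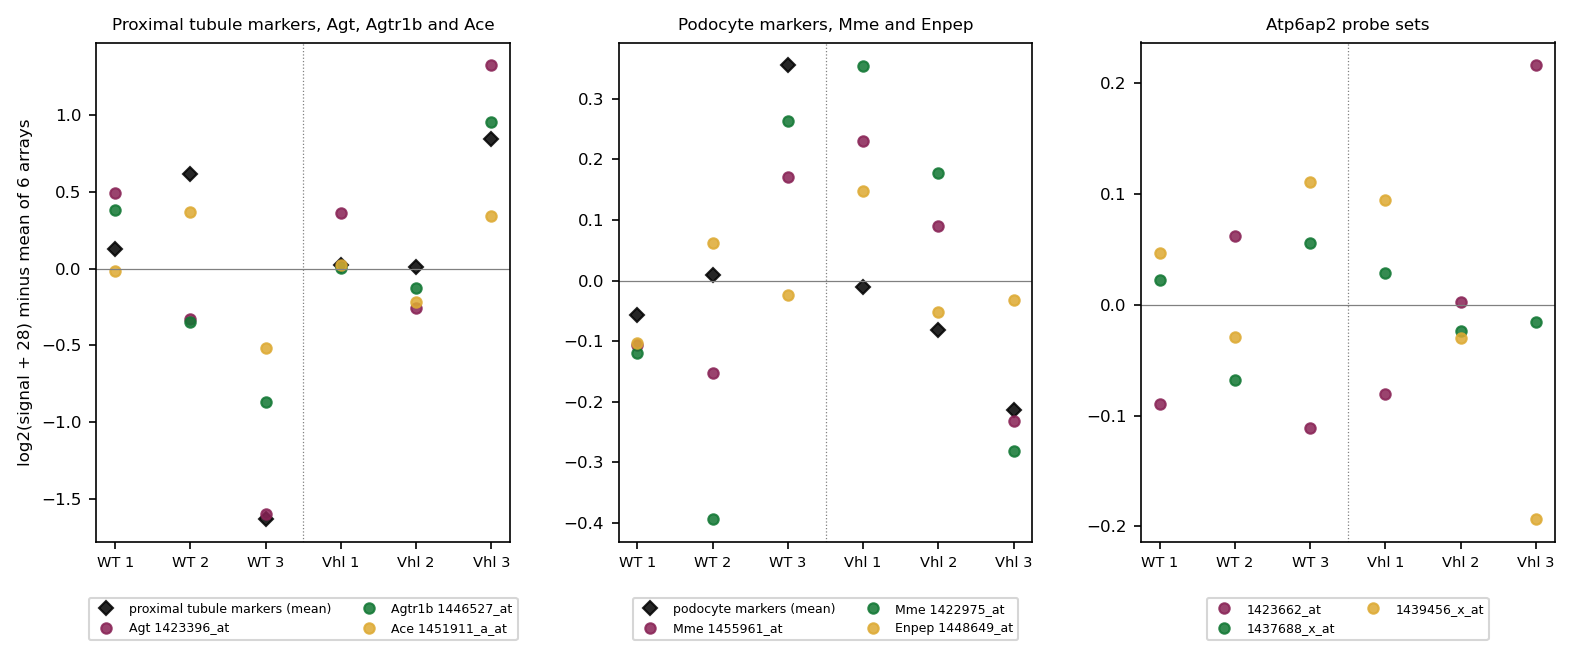
Log2(signal + 28) on each array minus the mean of the 6 arrays, for Agt, Agtr1b and Ace beside the mean of 14 proximal tubule markers, for Mme and Enpep beside the mean of 10 podocyte markers, and for the 3 Atp6ap2 probe sets; the dotted line separates wild-type (WT) from Vhl-deleted (Vhl) arrays. Agt is lowest in wild-type replicate 3 and highest in Vhl-deleted replicate 3, and the outer Atp6ap2 probe sets lie on opposite sides of 0 in those arrays.

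Agtr1a encodes the main type 1 angiotensin receptor of the mouse, coupled to Gq. Its signal (1436739_at) was 8444, 9909 and 10623 on wild-type and 9994, 10496 and 10944 on Vhl-deleted arrays. Wild-type replicate 1 was the lowest array, and the other 5 lay close together. The means were 9659 ± 1111 (SD, n = 3) and 10478 ± 475 (SD, n = 3), a log2 change of 0.12 (SE 0.13, limma adjusted p = 0.984). Without wild-type replicate 1 the change was 0.03, and it was positive under all 17 alternatives run. Mesangial and smooth muscle markers, the cell class in which this receptor is known, had 6 of 7 tested members with a positive change (median 0.17, 0 called), against 50% of all genes. The groups did not overlap in 2 of the 7, Myl9 at 0.40 and Tagln at 0.53, and in 10.6% of all genes. In Itga8 (0.17) and Pdgfrb (0.22), the brightest of the list, they overlapped. The summed signal over 8 genes of the list ran from 40868 to 47706 in wild-type and from 49537 to 53059 in Vhl-deleted arrays. The mean log2 level of the same 8 genes overlapped, at 10.65, 10.92 and 10.85 on wild-type and 10.95, 10.84 and 11.19 on Vhl-deleted arrays. The part of mesangial content in the Agtr1a value was not tested.

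The other receptor genes were dim. Agtr1b, the other type 1 receptor gene, known mainly from the adrenal and pituitary, had a signal (1446527_at) of 45.4, 16.1 and 2.67 on wild-type and 28.2, 23.4 and 81.1 on Vhl-deleted arrays. As with Agt, wild-type replicate 3 was the lowest and Vhl-deleted replicate 3 the highest. The log2 change was 0.56 (SE 0.41, limma adjusted p = 0.984) on all arrays, and it was 0.26 or 0.22 when replicate 3 of the wild-type or of the Vhl-deleted group, respectively, was left out. Agtr2, which encodes the type 2 receptor and is expressed mostly in the fetal kidney, had a signal (1415832_at) of 2.00, 1.70 and 3.84 on wild-type and 28.2, 0.93 and 25.3 on Vhl-deleted arrays. Vhl-deleted replicates 1 and 3 stood above the rest, and Vhl-deleted replicate 2 was the lowest of all 6. The Agtr2 log2 change was 0.54 (SE 0.27, limma adjusted p = 0.984), the lowest unadjusted p of the 12, and it rests on signals around or below the pseudocount. With a pseudocount of 1 it was 1.75, and with 100 it was 0.20. Detection calls were not used here, so whether Agtr1b and Agtr2 lay above background is unknown.

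Atp6ap2 encodes the (pro)renin receptor, which is also an accessory subunit of the proton pump V-ATPase. Probe set 1437688_x_at gave 8978, 8432 and 9193 on wild-type and 9021, 8698 and 8746 on Vhl-deleted arrays. All 6 arrays lay within 1.09-fold of each other, and the within-group SD of 0.050 on the log2 scale was at percentile 1.64 of the 10232 genes tested. The log2 change was -0.0067 (SE 0.10, limma adjusted p = 0.997), and its sign was positive with the tubule covariate (0.018), with array weights and on leaving out Vhl-deleted replicate 2 or either of wild-type replicates 1 and 3 (0.020 for replicate 3).

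The remaining Atp6ap2 probe sets ran against each other. Probe set 1423662_at gave 4183, 4649 and 4118 on wild-type and 4209, 4459 and 5176 on Vhl-deleted arrays (log2 change 0.09, SE 0.12). Probe set 1439456_x_at gave 6541, 6207 and 6841 on wild-type and 6766, 6202 and 5535 on Vhl-deleted arrays (log2 change -0.09, SE 0.12). The array that was lowest for the former, wild-type replicate 3, was highest for the latter, and Vhl-deleted replicate 3 was the reverse. The ratio of the former to the latter was 0.640, 0.749 and 0.602 on wild-type and 0.622, 0.719 and 0.935 on Vhl-deleted arrays, overlapping between groups. On arrays of this kind the suffix of 1437688_x_at and 1439456_x_at marks probes that may also bind other transcripts, so the Atp6ap2 level read by these probe sets is uncertain.

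Among the 5 genes in the gene fit, the within-group SD was lowest for Atp6ap2 and Enpep (percentile 13.6 of all genes tested), followed by Agtr1a (percentile 25.9), Mme (percentile 57.0) and Ace (percentile 85.9). The genes whose profile over the 6 arrays was most like a member's were found by the root mean square (RMS) log2 difference after each gene was centred on its own mean. For Enpep these were Mrpl9, Slc35d2 and Dcun1d2, at 0.020 to 0.038. Those nearest Agtr1a were Aacs, Bcl9l and Plekho2 (0.036 to 0.043), and those nearest Mme were Inip, Macf1 and Abhd13 (0.041 to 0.045). The nearest to Ace were Tkt, Cadps2 and Slc9a8 (0.054 to 0.059), and to Atp6ap2 Dcaf13, Fxyd5 and Kdm1a (0.017 to 0.022). These genes were picked from 10232 over 6 arrays, and they are given as a description.

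The wider pathway was read from 6 further lists. In none of them did a gene pass the limma threshold, and 0.0977% of all 10232 genes did, with 4.86% at an unadjusted p under 0.05, 10.6% whose groups did not overlap, a positive change in 50% and a median change over all genes of 0.00023. Among the other enzymes that process angiotensins and prorenin, 9 were tested and 7 had a positive change (median 0.08, 0 with an unadjusted p under 0.05). Their median was 0.016 without wild-type replicate 3, -0.040 with Vhl-deleted replicate 3 left out and 0.0061 with the tubule covariate. Anpep, aminopeptidase N, which takes angiotensin III further down, had a signal of 184, 240 and 107 on wild-type and 278, 164 and 398 on Vhl-deleted arrays (log2 change 0.57, SE 0.36). Its lowest and highest arrays were again wild-type replicate 3 and Vhl-deleted replicate 3, and the change was 0.30 with either of them left out and 0.27 with the tubule covariate. Prep, prolyl endopeptidase, was at 0.17, and Nln, neurolysin, at -0.17.

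Receptor partners and signalling genes gave 11 tested, 5 of them positive, with a median of -0.05 (0.0056 without wild-type replicate 3) and 1 with an unadjusted p under 0.05. That gene was Arap1, which binds the type 1 receptor and promotes its traffic to the surface, at 268, 387 and 248 on wild-type and 446, 406 and 453 on Vhl-deleted arrays. All 3 Vhl-deleted arrays of Arap1 lay above the wild-type arrays, as in 4.8% of all genes, with a log2 change of 0.51 (95% interval 0.09 to 0.94, limma adjusted p = 0.936). Igf2r, which binds prorenin through its sugar residues, was at 0.29 and also without overlap, and Rgs2, a brake on Gq signalling, was at -0.33. Without wild-type replicate 3 the changes of Arap1, Igf2r and Rgs2 were 0.40, 0.16 and -0.17. Zbtb16, a partner of the type 2 receptor chosen here after its values were seen, scattered most, at 6205, 4018 and 6594 on wild-type and 399, 14987 and 507 on Vhl-deleted arrays. Vhl-deleted replicate 2 stood above, and the other Vhl-deleted arrays below, all wild-type arrays. Its log2 change was -1.87 (SE 1.27), and without Vhl-deleted replicate 2 Zbtb16 passed the threshold, at -3.53 (SE 0.249, limma adjusted p = 0.048). In that fit 3 of 10232 genes were called. The array left out was the Vhl-deleted array above wild-type, so this value is given as a description only.

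**Figure D4:**
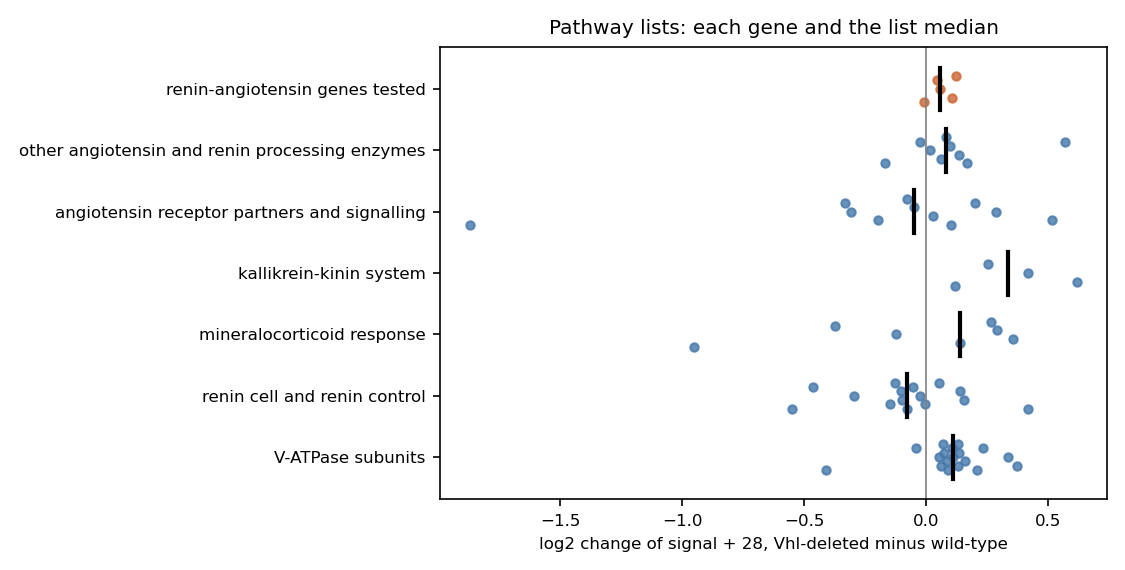
Log2 change of signal + 28 (Vhl-deleted minus wild-type, n = 3 arrays per group) of each gene tested in the renin-angiotensin genes and the 6 further lists, with points for genes and a vertical bar for the list median. The 5 renin-angiotensin genes lie between -0.0067 and 0.12, and the widest spread is in the receptor partner list, where Zbtb16 is at -1.87.

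All 4 kallikrein-kinin genes tested had a positive change (median 0.34, none with an unadjusted p under 0.05). The median was 0.025 without wild-type replicate 3, 0.042 with Vhl-deleted replicate 3 left out, 0.050 with the tubule covariate and -0.092 with array weights. Kng1, the kininogen gene whose product Ace degrades after its release as bradykinin, was at 0.42, Klk1, tissue kallikrein, at 0.26 and Serping1, an inhibitor of plasma kallikrein, at 0.12. Kng1 and Klk1 were lowest in wild-type replicate 3, at 673 and 5739, and highest in Vhl-deleted replicate 3, at 2390 and 15080. These were the same arrays as for the proximal tubule markers and for the macula densa and thick ascending limb markers. Without wild-type replicate 3 the change was -0.080 in Kng1 and -0.085 in Klk1. With the mean of its probe sets past the filter the Klk1 change was 0.034.

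The mineralocorticoid response list, downstream of angiotensin II through aldosterone, had 7 genes tested, 4 of them positive, with a median of 0.14. Tsc22d3, a steroid-induced leucine zipper gene, was the member with an unadjusted p under 0.05, at 5255, 5363 and 11148 on wild-type and 3211, 5064 and 2640 on Vhl-deleted arrays. Its groups did not overlap, and the log2 change was -0.95 (95% interval -1.78 to -0.12, limma adjusted p = 0.943). Nr3c2, the mineralocorticoid receptor, was at -0.37, also without overlap, and Sgk1, an aldosterone-induced kinase, at 0.27. Without wild-type replicate 3, the highest array for Tsc22d3, the change of Tsc22d3 was -0.60 and the list median -0.17. With the tubule covariate the change of Tsc22d3 was -0.63.

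Genes of renin cells and of renin control had 15 tested, 11 of them with a negative change, and a median of -0.08 (0.0098 on leaving out Vhl-deleted replicate 3). The lowest p belonged to Npr1, the receptor for atrial natriuretic peptide, which restrains renin release, at 351, 342 and 504 on wild-type and 262, 272 and 245 on Vhl-deleted arrays. Each Vhl-deleted value was under each wild-type value (log2 change -0.55, 95% interval -0.97 to -0.14, limma adjusted p = 0.834). The Npr1 change was -0.38 without wild-type replicate 3, its highest array, and -0.42 with the tubule covariate. Ep300, a coactivator used at the renin promoter and by HIF, was at -0.30 (95% interval -0.54 to -0.05, limma adjusted p = 0.936), without overlap. Gja5, a connexin gene of renin cells and arteriolar endothelium, was at -0.46 and its groups overlapped; it was at -0.13 without wild-type replicate 3 and -0.82 without wild-type replicate 1. The renin cell markers Ren1 and Akr1b7 had no named probe set here, so the share of renin cells was not checked.

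Of the V-ATPase subunits, the complex that Atp6ap2 belongs to, 18 were tested and 16 had a positive change (median 0.11, 1 with an unadjusted p under 0.05). The median was 0.0083 without wild-type replicate 3, 0.023 with Vhl-deleted replicate 3 left out, 0.013 with the tubule covariate and -0.018 with array weights. The gene with an unadjusted p under 0.05 was Atp6v0a1, a membrane subunit. Its signal was lower, at 486, 468 and 591 on wild-type and 428, 334 and 380 on Vhl-deleted arrays (log2 change -0.41, 95% interval -0.76 to -0.06, limma adjusted p = 0.943). With the mean of its probe sets past the filter the Atp6v0a1 change was -0.22. Atp6v0b was at 0.21 and Atp6v1c1 at 0.16. The summed signal of the V-ATPase subunits (20 genes) was lowest in wild-type replicate 3, at 47544, and highest in Vhl-deleted replicate 3, at 62842, the order of the 2 extreme arrays for Agt, Agtr1b and the tubule markers.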

How the data were processed

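Per the submitters' processing notes the arrays were processed with MAS5 (version not given in the sources used here), and the authors deposited linear signal intensities, 1 for each probe set of an array. The values show that the authors scaled each array, since the mean trimmed by 2% at each end is 500.0 on all 6. Probe sets were named from the array annotation, with symbols updated through Entrez numbers (34741 of 34945 with 1 symbol matched); 932 had several symbols and 9160 none.

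A pseudocount of 28, the 25th percentile over the table, was added before taking log2, so changes of dim genes are understated. The test was limma 3.58.1 (R 4.3.3; lmFit and eBayes, trend on mean intensity) with Benjamini-Hochberg adjustment, run once over all 45037 probe sets that are not controls (all values of member probe sets are from this fit) and once over 10232 genes, each by its brightest probe set in the upper 50% of the probe sets with 1 symbol (all values of other genes). With 3 arrays per group an exact permutation test cannot go below a p of 0.10, so limma's is the test used. The labels call the mice biological replicates. No pair of arrays was identical and none was left out. The fit was tested on simulated data with known changes.

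The members, lists and tests were chosen with earlier results of these data known. The text names all members, from each further list the genes past the threshold or else the 3 of lowest unadjusted p, the 3 most alike genes for each member tested, and Vhl and Egln3 as checks. Zbtb16 was added after its values were seen, as were the podocyte, mesangial and smooth muscle markers named. Alternatives changed scaling, pseudocount, filter, probe set choice, variance trend, array weights, a replicate block and a tubule covariate, and left out each array in turn; a filter at the upper 50% of all probe sets was added after seeing the data.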

Additional observations from a re-analysis of the deposited data

How the results depend on the processing

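No member passed the limma threshold under any of the 17 alternatives to the gene fit or the 13 to the probe set fit. Agt, Agtr1a, Agtr1b, Agtr2, Mme 1422975_at, Atp6ap2 1423662_at and Atp6ap2 1439456_x_at kept their sign in every alternative run. With quantile normalization Enpep was at -0.060 and Ace 1427034_at at -0.0019. With array weights Ace 1451911_a_at was at -0.11 in the gene fit and -0.045 in the probe set fit, and Atp6ap2 1437688_x_at at 0.019 and 0.0073. With the tubule covariate they were at -0.13 and 0.018, and with the mean of kept probe sets Atp6ap2 was at 5.4e-05. Leaving out 1 array gave ranges of -0.13 to 0.32 for Ace 1451911_a_at, -0.00068 to 0.096 for Ace 1427034_at, -0.021 to 0.085 for Enpep, -0.042 to 0.19 for Mme 1455961_at and -0.042 to 0.020 for Atp6ap2 1437688_x_at. Genes called over all genes numbered 10, against 37 with array weights, 30 with the tubule covariate, 1 with the replicate block and 1 to 13 with an array left out (1 without Vhl-deleted replicate 1). The median of the mineralocorticoid list was 0.28 with the upper 30% filter, -0.20 with array weights, -0.13 with the tubule covariate and -0.17 to 0.29 with an array left out. That of the renin control list was -0.028 with array weights and -0.11 to 0.0098 with an array left out. In the receptor partner list 0 to 1 genes were called with an array left out (Zbtb16, without Vhl-deleted replicate 2). The causes were not tested. The filter at the upper 50% of all probe sets, chosen after seeing the data, called 15 of 11168 genes and 0 of 6 members. Same-numbered arrays did not deviate together (correlations of -0.0448, -0.437 and -0.539), so no pairing by number was seen. With so few arrays in a group the deviations are not independent of each other. These correlations therefore cannot exclude a shared litter or batch, which was not tested. Under the replicate block no member was called. Of the other genes named from the further lists, Kng1 and Klk1 were at -0.10 and -0.11 with array weights, Klk1 at -0.062 with the tubule covariate and Gja5 at 0.018 with array weights, and leaving out an array gave -0.080 to 0.69 for Kng1, -0.085 to 0.45 for Klk1 and -0.38 to 0.0089 for Nln. Pseudocounts moved the dim genes most: Agtr1b was at 1.44 with 1 and 0.24 with 100, and Agt at 1.43 and 0.57.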
